A study of Mus musculus with 3 samples.

Results

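Cohesin is the ring-shaped protein complex that holds sister chromatids together. The 9 genes described here encode its subunits and 2 of the proteins that load it or release it, and they are 9 of the 21755 protein-coding genes annotated on chromosomes with peaks. They were listed by name. The 4 meiotic members (Smc1b, Rec8, Rad21l and Stag3) encode subunits of the cohesin of meiotic cells, and the 5 general members (Smc3, Rad21, Stag1, Nipbl and Wapl) also serve dividing cells elsewhere in the body. For each gene, the narrow H3K4me3 peaks with a centre within 1 kb of any annotated transcript start were taken, and the broad peak lying over a start was taken with its width. Genes without such a peak were kept.

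H3K4me3, trimethylation of lysine 4 on histone H3, marks the starts of active genes, and in germ cells entering meiosis it is also deposited by PRDM9 at the sites where recombination begins. It was measured by chromatin immunoprecipitation and sequencing in 2 ChIP libraries, with 1 input library of unenriched chromatin. All 3 came from whole adult testis of (C57BL/6J x CAST/Eij)F1 males of Prdm9 genotype Humanized/CAST, aged 23 weeks and born to C57BL/6J-Prdm9 Hum/B6 mothers and CAST/Eij fathers. The Humanized allele carries the zinc-finger array of human PRDM9 in the mouse gene. There was a single condition, so no contrast between genotypes or treatments could be made. The study's methods give 1 testis from each of 2 littermates, whereas the series record gives both testes of a single male. Under the record's account, the spread between replicates holds no variation between animals. Whole testis holds many cell types, and in such bulk chromatin fewer marked cells cannot be told apart from less of the mark per cell.

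In a cohesin ring, 2 SMC proteins are closed by a kleisin subunit, to which a STAG protein binds. SMC1B is the meiotic counterpart of SMC1A, the kleisins REC8 and RAD21L of RAD21, and STAG3 of STAG1 and STAG2. The general subunits are not confined to mitotic rings, and SMC3 is shared by both kinds of ring. NIPBL loads the ring onto chromatin and WAPL releases it. Meiotic cohesin forms the core of the chromosome axes along which homologous chromosomes pair and recombine.

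Over the 101978 narrow peaks, the libraries held 17621116 (replicate 1), 19094837 (replicate 2) and 1250138 (input) fragments summed over the peak centres. The replicates ordered the peaks alike, with a Spearman correlation of 0.950 over all of them and 0.997 over the 20571 narrow peaks near starts of protein-coding genes, as a description across peaks of libraries that were called together. The tissue was checked against its markers. All 7 germ cell markers had a start peak, with enrichment from 14.6 to 113. So did 2 of 3 Sertoli markers (11.0 to 17.5) and 3 of 4 Leydig markers (4.36 to 15.0). A start peak was also called at 4 of 4 macrophage and vascular markers (3.01 to 6.22), and at 0 of 5 markers of other tissues. Those 4 together held only 68, 89 and 15 fragments in replicate 1, replicate 2 and the input, and 2 of them had a broad peak. The 7 germ cell markers held 7284, 7639 and 112 fragments, and all had a broad peak. Of all protein-coding genes, 77.4% had a start peak. Enrichment is the deposited ratio of ChIP signal to local background, estimated from both replicates together, on a scale where 0 means no enrichment.

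CpG, the dinucleotide CG, is the site of DNA methylation in mammals and is dense at many promoters. The sequences at the starts of the meiotic members are shown because they range from rich to poor in CpG. Each holds 250 bases before and 50 bases after the RefSeq start (build GRCm38.p6, the assembly of mm10) and is written 5′ to 3′ on the strand of the gene, with every CG dinucleotide in capitals. The promoter of Wapl, the general member with the highest coverage, is set beside them. The last line is the 300 bases around the H3K4me3 peak upstream of Rad21l, read on the strand of Rad21l. The windows lie at chr15:85131908-85132207 on the minus strand for Smc1b, chr14:55617916-55618215 on the plus strand for Rec8, chr5:138280259-138280558 on the plus strand for Stag3, chr2:151668484-151668783 on the minus strand for Rad21l, chr14:34673678-34673977 on the plus strand for Wapl and chr2:151670227-151670526 on the minus strand for the peak upstream of Rad21l.
Smc1b: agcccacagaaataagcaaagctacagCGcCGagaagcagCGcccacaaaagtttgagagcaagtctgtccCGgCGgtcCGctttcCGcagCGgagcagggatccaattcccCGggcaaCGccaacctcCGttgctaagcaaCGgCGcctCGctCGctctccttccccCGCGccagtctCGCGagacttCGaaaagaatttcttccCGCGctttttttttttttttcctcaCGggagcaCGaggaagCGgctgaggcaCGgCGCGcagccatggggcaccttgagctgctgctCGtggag
Rec8: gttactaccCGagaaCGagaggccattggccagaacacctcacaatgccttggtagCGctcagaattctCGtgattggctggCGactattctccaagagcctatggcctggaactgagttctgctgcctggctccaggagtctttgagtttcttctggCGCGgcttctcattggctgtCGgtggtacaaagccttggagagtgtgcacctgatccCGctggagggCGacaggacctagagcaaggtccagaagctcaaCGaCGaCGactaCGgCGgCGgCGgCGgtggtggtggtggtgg
Stag3: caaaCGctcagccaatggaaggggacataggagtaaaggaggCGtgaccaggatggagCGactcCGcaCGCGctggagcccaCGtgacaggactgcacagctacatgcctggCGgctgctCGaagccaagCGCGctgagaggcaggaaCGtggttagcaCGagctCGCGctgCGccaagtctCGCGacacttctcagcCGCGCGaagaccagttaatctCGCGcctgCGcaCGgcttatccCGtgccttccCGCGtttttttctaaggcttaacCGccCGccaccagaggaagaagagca
Rad21l: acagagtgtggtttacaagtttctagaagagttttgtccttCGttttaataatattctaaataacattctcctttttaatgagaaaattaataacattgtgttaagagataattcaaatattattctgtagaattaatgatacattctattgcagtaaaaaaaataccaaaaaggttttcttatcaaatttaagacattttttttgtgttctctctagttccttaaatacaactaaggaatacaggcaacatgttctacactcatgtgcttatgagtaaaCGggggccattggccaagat
Wapl: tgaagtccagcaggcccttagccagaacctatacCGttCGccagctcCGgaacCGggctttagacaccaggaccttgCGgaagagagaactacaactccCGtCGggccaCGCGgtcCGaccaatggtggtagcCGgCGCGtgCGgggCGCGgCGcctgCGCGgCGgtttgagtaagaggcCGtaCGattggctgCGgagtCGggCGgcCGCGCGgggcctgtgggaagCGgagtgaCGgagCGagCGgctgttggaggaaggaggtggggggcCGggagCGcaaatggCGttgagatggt
Rad21l upstream peak: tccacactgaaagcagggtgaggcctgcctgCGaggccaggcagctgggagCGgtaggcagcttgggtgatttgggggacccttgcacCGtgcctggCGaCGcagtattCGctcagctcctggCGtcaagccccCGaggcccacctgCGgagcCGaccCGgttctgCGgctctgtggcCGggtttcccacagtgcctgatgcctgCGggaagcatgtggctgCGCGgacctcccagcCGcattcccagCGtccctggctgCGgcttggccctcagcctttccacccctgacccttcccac

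The observed over expected CpG ratio of these 300 bases was 1.08 in Smc1b and 1.06 in Stag3, with 29 and 30 CpG. It was 0.716 in Rec8, with 18 CpG, and 0.317 in Rad21l, with 2 CpG and a GC content of 29%. Over 20061 RefSeq promoters the median was 14 CpG and a ratio of 0.591, with quartiles of 0.242 and 0.834. In this window Smc1b and Stag3 lay above the upper quartile, Rec8 above the median and Rad21l below it. Over 1000 bases centred on the start the ratios were lower, at 0.703 in Smc1b, 0.753 in Stag3, 0.548 in Rec8 and 0.245 in Rad21l. In the same window they were 0.910 in Wapl, 1.00 in Stag1 and 0.934 in Smc3. Quartiles over all promoters were taken for 300 bases only, so the standing of the ratios over 1000 bases among promoters was not determined. In the 300 bases, the ratio among the general members was 1.09 in Wapl, 1.06 in Stag1 and 1.01 in Smc3, with 35, 43 and 32 CpG. The bases around the peak upstream of Rad21l had a ratio of 0.550, with 19 CpG and a GC content of 68%. Sequences were matched for 7 of the 9 members (77.8%), which is under 80%, so the classes were not compared by sequence. Rad21 and Nipbl were not matched.

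The letters TTCCCGC, a core that E2F factors bind, occurred on the plus strand at -48 in Smc1b, -3 in Stag3 and -16 in Stag1, counted from the start to the first base of the match. They were found on either strand in 3 of the 7 matched members and in 6.16% of all promoters. The E-box CACGTG was found in 1 member, Stag3, and in 8.06% of promoters. The GC box GGGCGG was found in Stag3, Smc3, Stag1 and Wapl, against 48.0% of promoters. CCAAT was found in 6 members, against 37.9% of promoters, and the MYB core AACNG in 6, against 78.9%. The RFX core GTTGCC was found in 3 members, against 12.4%, and the cyclic AMP response element TGACGTCA in 0 members, against 2.32%. Both strands were searched. A match is a run of letters and was not tested as a binding site.

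A narrow peak lay within 1 kb of a start in 8 of the 9 members, against 77.4% of all protein-coding genes. A broad peak lay over a start in the same 8, against 76.5%. The member without either was Rad21l. Each of the 5 general members had both kinds of peak, as did 3 of the 4 meiotic members. These shares lie near those of genes at large, and at 9 genes the count does not set cohesin genes apart.

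**Figure D1:**
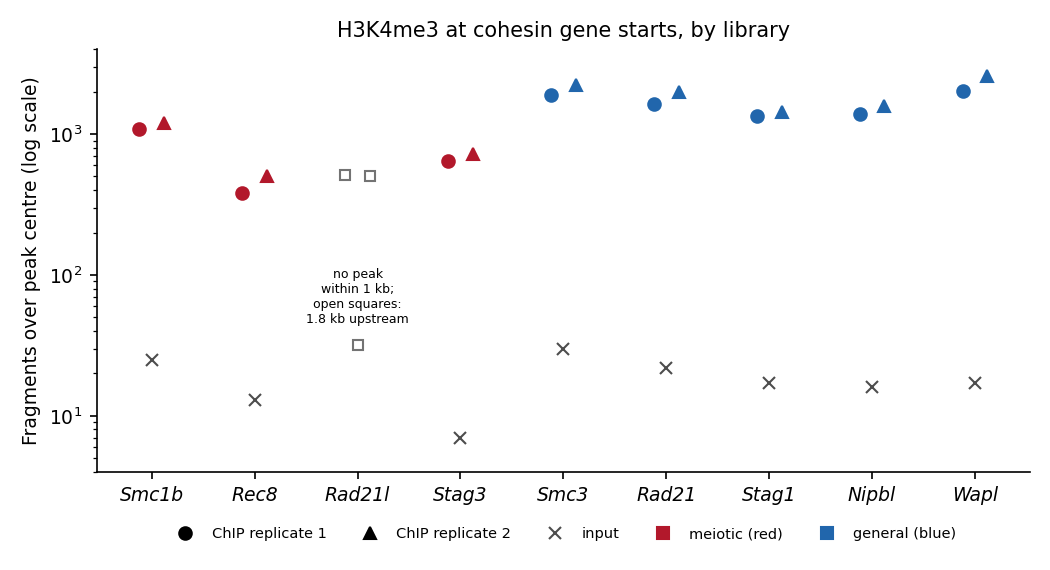
Fragments over the centre of the strongest narrow peak within 1 kb of a start, on a log axis, for each cohesin gene in ChIP replicate 1 (circles), ChIP replicate 2 (triangles) and the input (crosses), with meiotic members in red and general members in blue. The 3 meiotic members with a start peak reached at most 1086 and 1196 fragments in the replicates, below the lowest general member at 1334 and 1436, and open squares give the peak upstream of Rad21l (513, 501 and, in the input, 32).

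Among the SMC subunits, Smc3 (chr19:53600398-53645833, plus strand) encodes the subunit common to mitotic and meiotic rings. Its start peak held 1907 (replicate 1), 2233 (replicate 2) and 30 (input) fragments. Scaled to equal library totals, this was 2067 ± 113 fragments (SD, n = 2), more than at 90.1% of genes with a start peak, and the enrichment was 64.8. Smc1b (chr15:85064689-85131964, minus strand), its meiotic partner, held 1086, 1196 and 25 fragments. Its scaled coverage of 1141 ± 13.0 (SD, n = 2) exceeded that of 64.3% of genes, and its enrichment was 42.8. Both replicates thus put Smc1b below Smc3, by more than the spread between replicates. The broad peak over the start was wider at Smc1b (9900 bp) than at Smc3 (5100 bp). That of Smc1b also covered the start of Ribc2, a coding gene on the opposite strand whose start lies 114 bp away, so its width belongs to both genes.

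Of the kleisins, Rad21 (chr15:51962240-51991747, minus strand) encodes the subunit of mitotic rings. Its start peak held 1627, 1978 and 22 fragments in replicate 1, replicate 2 and the input, or 1798 ± 146 when scaled (SD, n = 2), with an enrichment of 77.0. Rec8 (chr14:55618037-55625395, plus strand) encodes the kleisin that keeps sister centromeres together until the second meiotic division. It held 381, 503 and 13 fragments, or 440 ± 61.3 when scaled (SD, n = 2), with an enrichment of 31.9. This was the lowest coverage of the 8 members with a start peak, in both replicates, and it exceeded that of 37.6% of genes. The centre of the Rec8 peak lay 665 bp downstream of the nearest start, in an intron, which is the farthest of the 8. The median over all genes was 131 bp downstream, with quartiles of 22 and 224 bp. The other 3 annotated starts of Rec8 lie inside the gene and had no peak within 1 kb.

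Rad21l (chr2:151645404-151668533, minus strand) encodes the second meiotic kleisin, which acts in early prophase. Around its single annotated start at position 151668533, no narrow peak centre lay within 1 kb and no broad peak covered the start. The nearest peak on the upstream side was centred at 151670377, which is 1844 bp upstream, and held 513 (replicate 1), 501 (replicate 2) and 32 (input) fragments. Its scaled coverage was 508 ± 37.3 (SD, n = 2) and its enrichment 14.8, and its broad peak (chr2:151669401-151671400) was 2000 bp wide and ended 868 bp short of the start. By scaled mean coverage this peak would stand between Stag3 and Rec8, although in replicate 2 it held 501 fragments against 503 at Rec8. By enrichment it would be the lowest of the 9. It overlapped a PRDM9-independent region, which is a region where earlier mice with different Prdm9 alleles shared H3K4me3. No GENCODE start of any gene lay within 1 kb of its centre. RefSeq places the starts of 3 predicted Rad21l transcripts at 151670622, which is 245 bp from the centre, and gives the annotated start to 1 curated transcript. The absence of a peak at Rad21l thus holds for the GENCODE starts. With the RefSeq starts 9 of 9 members had a narrow peak and a broad peak.

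**Figure D2:**
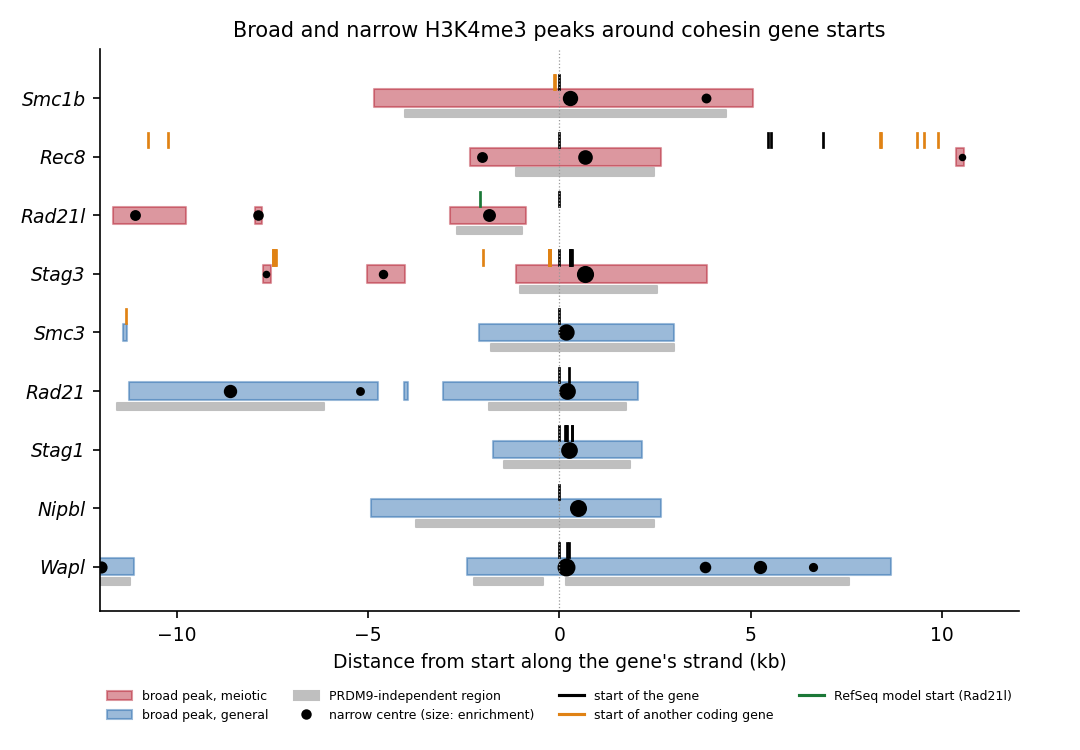
Broad peaks (bars, red for meiotic and blue for general members), narrow peak centres (dots, larger with higher enrichment), PRDM9-independent regions (grey bars) and annotated starts (ticks) within 12 kb of the start of each cohesin gene, with distance in kb along the strand of the gene. At Rad21l the bar ends 868 bp before the start, whereas at the other 8 genes a bar spans the start, from 3900 bp wide at Stag1 to 11100 bp at Wapl.

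Of the STAG subunits, Stag1 (chr9:100597798-100959375, plus strand) held 1334, 1436 and 17 fragments in replicate 1, replicate 2 and the input at its strongest start peak. This gave 1385 ± 6.50 scaled fragments (SD, n = 2) and an enrichment of 76.6. A weaker peak lay 104 bp upstream of the 5′-most start of the gene, with 101, 152 and 4 fragments and an enrichment of 29.6. H3K4me3 thus marked 2 start regions of Stag1, and the downstream one carried more fragments in both replicates. Stag3 (chr5:138280240-138312393, plus strand), the STAG protein of meiotic rings, held 642, 718 and 7 fragments, or 680 ± 15.2 when scaled (SD, n = 2). Its enrichment was 91.3. Stag3 stood above 91.4% of genes by enrichment but above only 48.1% by coverage, and the input held 7 fragments there, against a median of 19 over all genes. The raw ratio of ChIP to input fragments at Stag3 was 91.7 in replicate 1 and 103 in replicate 2. With the libraries scaled to equal totals over the peak centres, which puts a ratio of 1 at the average over all peaks rather than at background, it was 6.51 in replicate 1 (95% interval 3.14 to 16.2) and 6.72 in replicate 2 (3.24 to 16.8), with exact conditional binomial intervals that cover counting error only. The starts of the coding genes Gpc2 and Gm43720, on the opposite strand, lay 235 and 282 bp from that of Stag3 under the same broad peak of 5000 bp.

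Nipbl (chr15:8290617-8444463, minus strand), which encodes the loader, held 1386, 1580 and 16 fragments in replicate 1, replicate 2 and the input. Its scaled coverage was 1481 ± 53.1 (SD, n = 2), its enrichment 87.1 and its broad peak 7600 bp wide. That broad peak reached farther upstream of the start (4937 bp) than downstream (2662 bp), whereas the medians over all genes were 1147 bp upstream and 1960 bp downstream. Wapl (chr14:34673928-34747983, plus strand), which encodes the release factor, held 2038, 2567 and 17 fragments, or 2296 ± 244 when scaled (SD, n = 2). It had the highest coverage and the highest enrichment (127) of the members, above 94.1% and 98.4% of genes. The raw ratio of ChIP to input fragments at Wapl was 120 in replicate 1 and 151 in replicate 2. Scaled in the same way as at Stag3, it was 8.51 in replicate 1 (95% interval 5.30 to 14.6) and 9.89 in replicate 2 (6.16 to 17.0). Its broad peak was the widest at 11100 bp, wider than at 95.4% of genes, and ran 8672 bp into the gene. The start of the lncRNA 5830448L01Rik lay 165 bp away on the opposite strand. At an internal start of Wapl, a weak peak held 9, 7 and 4 fragments, with an enrichment of 1.75, and was the only start peak of a member outside the PRDM9-independent regions.

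In order of scaled coverage the members ran Wapl, Smc3, Rad21, Nipbl, Stag1, Smc1b, Stag3 and Rec8. Neighbours in this order were called apart where their exact 95% Poisson intervals did not overlap in either replicate, which was so for 5 of 7 pairs. These intervals cover counting error only. Wapl and Smc3 were apart in replicate 2 only, and Nipbl and Stag1 in neither replicate. The scaled replicates of a single gene differed by up to 0.28 on the log2 scale, at Rec8, and by 0.22 at Wapl. The gaps from Smc3 to Rad21 (0.20), from Rad21 to Nipbl (0.28) and from Stag1 to Smc1b (0.28), the last being the boundary between the classes, were no larger than that. At Stag1 and Smc1b themselves, replicate 2 differed from replicate 1 by -0.01 and 0.02. The gaps from Smc1b to Stag3 (0.75) and from Stag3 to Rec8 (0.63) were larger.

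All 3 meiotic members with a start peak lay below all 5 general members in both replicates. The highest of the 3, Smc1b, had 1086 and 1196 fragments, and the lowest general member, Stag1, had 1334 and 1436. Other coding genes start under the broad peaks of Smc1b and Stag3 and of none of the general members. The fragments at Smc1b and Stag3 can therefore not be assigned to these genes alone. The contrast holds for these members and not for every subunit of mitotic rings: Smc1a held 399 and 535 fragments and Stag2 held 649 and 749, close to the 642 and 718 of Stag3. Stag2 was named after its values were seen, and both genes lie on the X chromosome. Among autosomal genes that act with cohesin, Esco2 (648 and 629 fragments) and Espl1 (960 and 997) also lay below Stag1 in both replicates. Esco1 (2819 and 2713) and Mau2 (2859 and 2969) lay above it. Esco2, Espl1 and Mau2 were likewise named after their values were seen. The median scaled coverage was 680 fragments for the 3 meiotic members and 1798 for the 5 general members, a difference of -1.40 on the log2 scale. With replicate 1 left out it was -1.46, and with replicate 2 left out -1.34. Beside these stands the median over all genes with a start peak, 737 scaled fragments with quartiles of 228 and 1470. Coverage exceeded the median over all genes in both replicates at 5 of 5 general members and 1 of 3 meiotic members, against 49.1% of genes. The meiotic members with a peak thus sat around the middle of all genes, with the general members above it. Genes are not replicates of a class, and no test of the difference was made.

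By enrichment the classes overlapped. The medians were 42.8 over the 3 meiotic members and 77.0 over the 5 general members, but Stag3 at 91.3 stood above Smc3, Rad21, Stag1 and Nipbl. With peaks taken within 500 bp of a start, where Rec8 drops out, the meiotic median was 67.1 over 2 members and the general one stayed at 77.0. Over all 16844 genes with a start peak the median enrichment was 37.3, with quartiles of 14.4 and 65.1. Dividing the coverage by that of the input reduced the log2 difference between the class medians from -1.40 to -0.83. The input held a median of 13 fragments at the meiotic peaks and 17 at the general ones, and its part in the enrichment of Stag3 was not tested.

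Broad peak widths did not separate the classes. The meiotic widths were 5000 bp at Rec8 and Stag3 and 9900 bp at Smc1b, with a median of 5000 bp. The general widths ran from 3900 bp at Stag1 through 5100 bp at Smc3 and Rad21 and 7600 bp at Nipbl to 11100 bp at Wapl, with a median of 5100 bp. Every one of the 8 exceeded the median of 3400 bp over 16634 genes. Another coding gene started under the same broad peak at 2 of the 8 members, Smc1b and Stag3, against 21.6% of genes. Since broad peaks are merged over both replicates, widths have no replicate error.

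**Figure D3:**
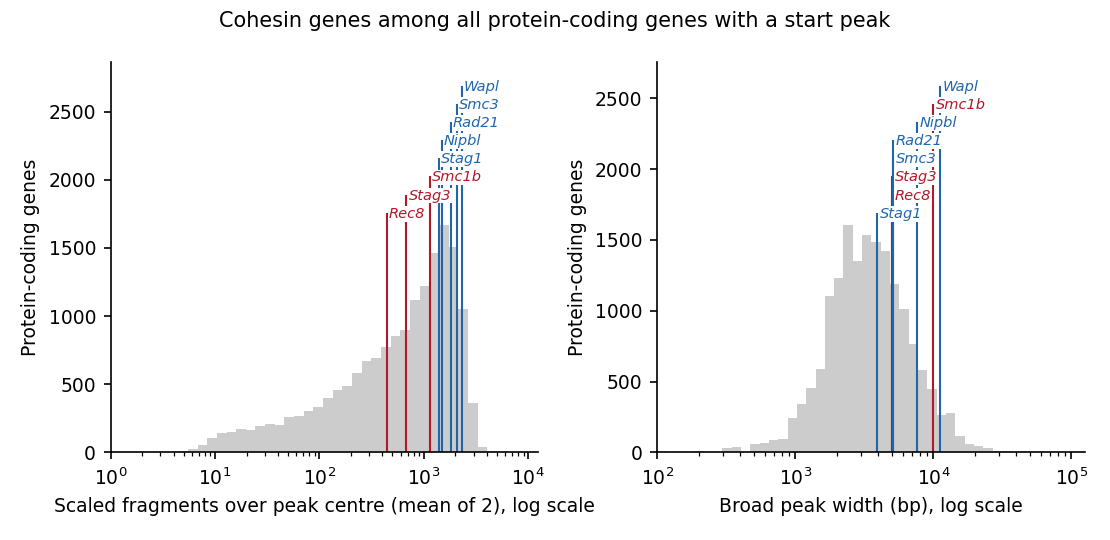
Grey histograms on log axes, with vertical lines for the cohesin genes (red meiotic, blue general). The left panel gives scaled fragments over the peak centre (mean of both replicates) for all protein-coding genes with a narrow start peak. The right panel gives broad peak width in bp for all protein-coding genes with a broad peak over a start. By coverage the red lines (440 to 1141 fragments) lie left of the blue ones (1385 to 2296), whereas by width the colours interleave.

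The strongest start peak overlapped a PRDM9-independent region in 8 of 8 members, against 92.0% of genes with a start peak. Its centre lay downstream of the nearest start in 3 of 3 meiotic members, by 287 bp at Smc1b, 354 bp at Stag3 and 665 bp at Rec8. It did so in 3 of 5 general members, by 56 bp at Stag1, 170 bp at Smc3 and 489 bp at Nipbl, and lay 40 bp upstream at Rad21 and 15 bp upstream at Wapl. The share over all genes was 77.6%.

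Within the gene bodies, 19 narrow peaks overlapped no PRDM9-independent region and are called PRDM9-dependent here. They lay in 5 of 9 members, against 48.3% of genes: 10 in Stag1, 3 in Smc1b, 3 in Nipbl, 2 in Wapl and 1 in Rad21l. All 19 were intronic, but the intronic share over all genes was not computed, so this count does not set them apart. The 19 peaks held 4 to 50 raw fragments in replicate 1, 7 to 47 in replicate 2 and 1 to 9 in the input. At a likelihood ratio p-value under 1e-10, 14 of them remained. In both replicates 18 of 19 exceeded the input, but peaks were called against this same input, so that count is no separate check. The exception was a Stag1 peak with 4, 10 and 4 fragments. Enrichment ran from 1.51 to 10.7 with a median of 3.21, against a median of 2.79 over all 62385 PRDM9-dependent narrow peaks, and was at every one of the 19 below the 31.9 of Rec8, the lowest of the strongest start peaks. The internal start of Wapl described above is among them. Stag1 is the longest member at 361.6 kb, and per 100 kb of gene body it held 2.77 such peaks, close to the 2.91 over all genes. All members together held 2.39 per 100 kb, the meiotic members 3.08 and the general members 2.26. At Wapl the highest, with an enrichment of 10.7, lay 44.4 kb into the gene, and held 20, 26 and 2 fragments. In Rad21l the single peak lay 22.2 kb into the gene, near its 3′ end, and held 30, 34 and 9 fragments with an enrichment of 3.21. Rec8, Stag3, Smc3 and Rad21 had none.

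**Figure D4:**
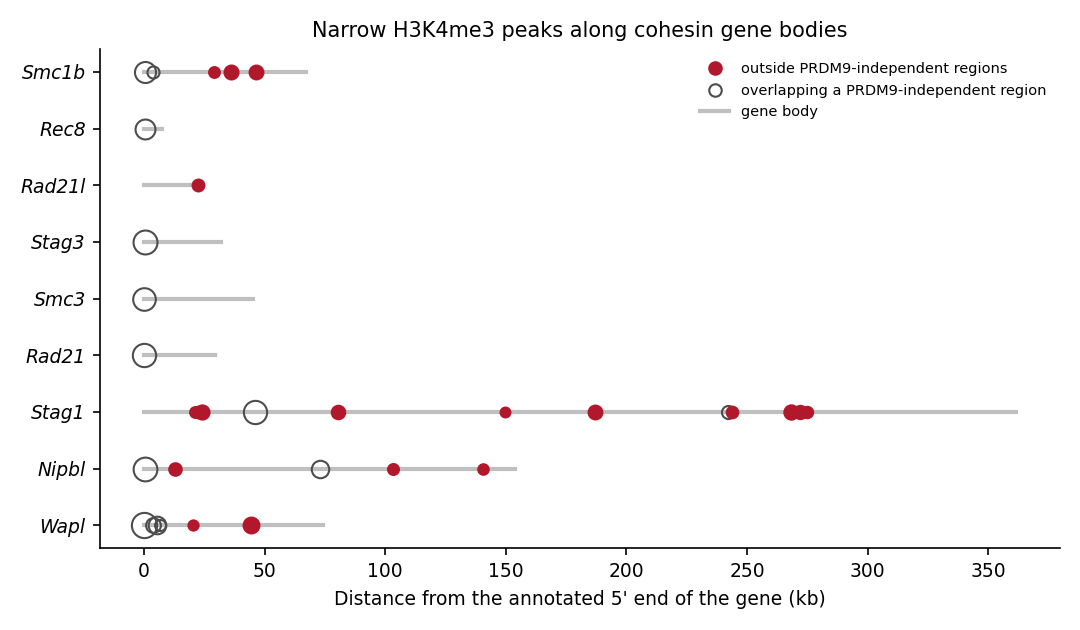
Narrow H3K4me3 peaks along the body of each cohesin gene, with distance in kb from its annotated 5′ end, filled red where the peak overlapped no PRDM9-independent region and open where it did, and larger with higher enrichment. Stag1 carries 10 of the 19 filled peaks over 361.6 kb, and Rad21l has no peak at its start and 1 filled peak 22.2 kb into the gene.

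Of 16 further genes that act with cohesin, listed by name, 16 had a narrow peak near a start and 16 a broad peak over one, against 77.4% and 76.5% of all protein-coding genes. Their median enrichment was 61.9, and 12 of 16 exceeded the median of 37.3 over all genes. The highest were Smc1a, the mitotic counterpart of Smc1b, with 399 and 535 fragments in the replicates, 4 in the input and an enrichment of 109.8, and Esco1, an acetyltransferase that stabilises the ring on chromatin, with 2819, 2713 and 28 fragments and an enrichment of 92.9. The lowest were Ctcfl, the testis paralogue of the insulator protein CTCF, with 307, 409 and 22 fragments and an enrichment of 15.2, and Hdac8, which deacetylates SMC3, with 158, 168 and 8 fragments and an enrichment of 19.1. Smc1a and Hdac8 lie on the X chromosome, present in a single copy in males, and Smc1a held fewer fragments than Smc1b in both replicates although its enrichment was the higher.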

How the data were processed

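H3K4me3 ChIP was sequenced in 2 ChIP libraries and 1 input library. The authors mapped read pairs to mm10 with BWA and Stampy, removed duplicates with samtools and computed fragment coverage with bedtools. Peaks came from their likelihood ratio caller, run on the replicates together with the input as background, keeping narrow peaks at least 1 kb apart at a p-value threshold of 1e-6 and merging adjacent 100 bp bins under 1e-5 into broad peaks. The deposited counts are fragments over each narrow peak centre in each library, without normalization. The deposited enrichment is a ratio to local background from both replicates, on a scale where 0 means no enrichment. The deposited p-value tests it against 0, with very small values written as 0, and was used here only to filter peaks. Broad peaks and PRDM9-independent regions were deposited as positions.

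Gene starts came from GENCODE vM21, and for each gene the peak with the highest summed coverage within 1 kb of a start was used. Counts were scaled to equal totals over all narrow peaks, and 1 fragment was added to ChIP and input for the log2 ratio of their coverage. A narrow peak was called PRDM9-dependent when the interval of its centre overlapped no PRDM9-independent region by at least 1 bp. With 1 condition no p-value was computed. Sequences were taken from the RefSeq promoter table and the GRCm38.p6 genome, and all 7 promoters matched were identical to the genome. All 9 members and, of the 16 related genes, the 2 with the highest and the 2 with the lowest enrichment are named. Stag2, Esco2, Espl1 and Mau2 are named as well, after their values were seen. The members and lists were chosen with earlier results of these data known. Alternatives were other distances, start sets, peak thresholds, scalings and joins, and leaving out each replicate. The RefSeq starts were added after seeing the data. Assignment and interval code was tested on simulated data. The work used pysam 0.24.0, scipy 1.17.1, pandas 2.3.3, numpy 2.4.6 and matplotlib 3.10.9 under Python 3.11.15.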

Additional observations from a re-analysis of the deposited data

How the results depend on the processing

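Of 46 alternative values over 11 results, 36 moved by less than the spread between replicates or, for counts, by less than 1.5 times. A further 10 moved more and 0 reversed, although only results on a log2 scale could change sign. A count of 8 of 9 members cannot rise by 1.5 times. The peak gained at Rad21l within 2 kb or with RefSeq starts was therefore not scored as a move. Nor was the fall from 19 to 14 PRDM9-dependent peaks in gene bodies under a stricter p-value threshold. The median enrichment of the meiotic members with a peak, 42.8, became 67.1 within 500 bp of a start, where Rec8 dropped out, and 37.4 within 2 kb or with RefSeq starts, where Rad21l came in. The log2 difference of median coverage between meiotic and general members, -1.40, became -0.98 within 500 bp, -1.60 within 2 kb, -1.60 with RefSeq starts and -0.83 after division by the input, and ran from -1.46 to -1.34 with either replicate left out. The median log2 ratio of ChIP to input coverage over the members with a peak, 2.40, became 2.06 with 5 fragments added and 6.28 without scaling of the libraries. With replicates left out in turn it ran from 2.36 to 2.44. The median CpG ratio of the 7 matched promoters, 1.06, became 0.753 over 1000 bases centred on the start. Input coverage of 7 to 30 fragments at the members' start peaks limits the precision of every ratio to it. Peaks were called on both replicates together, so the replicates could be compared by their fragments at shared peaks and not by their own peak calls.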
